A study of Homo sapiens with 4 samples.

Results

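The genes described here are the nuclear-encoded subunits of the mitochondrial respiratory chain and of ATP synthase, taken by symbol from a count table of human bronchial epithelial cells. Symbols that begin with NDUFA, NDUFB, NDUFC, NDUFS or NDUFV and a digit were assigned to complex I, the 4 SDH genes to complex II, symbols that begin with UQCR to complex III, those that begin with COX and a digit from 4 to 8 to complex IV, and those that begin with ATP5 and a letter to ATP synthase, with symbols that hold a hyphen left out. This gave 88 of 24424 gene symbols, with 38 in complex I, 4 in complex II, 10 in complex III, 17 in complex IV and 19 in ATP synthase. Of the 88, 84 name subunits, isoforms or paralogues, 2 are pseudogenes (ATP5EP2 and UQCRBP1), and 2 (ATP5S and ATP5SL) carry an ATP synthase symbol but are now named DMAC2L and DMAC2, after assembly of the distal membrane arm of complex I. NDUFA4 was kept with complex I by its symbol, although its product is now assigned to complex IV.

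The cells were BEAS-2B, an immortalised line of bronchial epithelium, and RNA was sequenced from 4 libraries, with 1 library in each group. The siOCLN+LPS library came from cells given an occludin siRNA by transfection for 24 h (OCLN, a tight junction protein of the membrane) and then LPS, a bacterial lipopolysaccharide that signals through TLR4, for 2 h. The wtOCLN+LPS-labelled library came from cells transfected with wild-type occludin for 24 h and then given LPS for 2 h, the LPS library from cells given LPS, and the control library from untreated cells. No genotype other than wild type is given for any library. No transfection or mock transfection is given for the LPS and control libraries, so that in both comparisons with LPS the act of transfection, its 24 h and the agent transfected cannot be told apart. OCLN itself stood at 21.0 CPM in siOCLN+LPS, 29.7 CPM in the wtOCLN+LPS-labelled library, 50.4 CPM in LPS and 55.4 CPM in control. CPM is the count scaled to a library total of 1000000. OCLN was thus lower, not higher, in the library that its label describes as given wild-type occludin, and that library is named by its label throughout.

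Complexes I to IV of the inner mitochondrial membrane pass electrons from NADH and succinate to oxygen, and complexes I, III and IV pump protons as they do so. ATP synthase lets the protons back and makes ATP. The central catalytic subunits of each complex are few and are joined by many small accessory subunits that hold the complex together. A small set of 13 subunits is encoded in mitochondrial DNA, and none of their symbols was found among the counted genes. In airway epithelium, the ATP made in this way fuels ion transport and, in ciliated cells, the beating of cilia.

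Promoters of nuclear respiratory genes are known for sites of the transcription factors NRF1 and GABP. The 250 bases before the annotated start were searched on both strands for GCGC on both sides of an A and any base, the letters of an NRF1 site, and for CCGGAAG, the letters of a GABP site; the motifs can share no more than an end base. Promoters were taken from RefSeq on GRCh38.p14, in which 68 of the 88 symbols had an entry. The last 130 bases before the start are shown for NDUFA3, UQCR11 and UQCRQ, which were at least 1.5-fold higher in both transfected libraries than in LPS, and for UQCRC1 and SDHD, which were not. These 5 were chosen after their values were seen, to show that either kind of gene can hold the motifs, which are in capitals and can be read on the other strand. All are 5′ to 3′ on the gene's strand.
NDUFA3, chr19:54102725-54102854, plus strand: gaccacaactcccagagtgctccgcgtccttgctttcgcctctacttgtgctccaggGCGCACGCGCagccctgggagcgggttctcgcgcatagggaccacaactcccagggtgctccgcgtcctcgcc
UQCR11, chr19:1605463-1605592, minus strand: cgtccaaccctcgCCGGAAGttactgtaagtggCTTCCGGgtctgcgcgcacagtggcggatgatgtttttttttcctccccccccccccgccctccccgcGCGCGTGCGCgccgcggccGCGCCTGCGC
UQCRQ, chr5:132866512-132866641, plus strand: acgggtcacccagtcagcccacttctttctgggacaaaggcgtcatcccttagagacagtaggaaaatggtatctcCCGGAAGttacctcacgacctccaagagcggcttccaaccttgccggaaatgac
UQCRC1, chr3:48609647-48609776, minus strand: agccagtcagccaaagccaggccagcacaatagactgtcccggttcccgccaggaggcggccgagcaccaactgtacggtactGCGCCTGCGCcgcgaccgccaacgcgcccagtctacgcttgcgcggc
SDHD, chr11:112086743-112086872, plus strand: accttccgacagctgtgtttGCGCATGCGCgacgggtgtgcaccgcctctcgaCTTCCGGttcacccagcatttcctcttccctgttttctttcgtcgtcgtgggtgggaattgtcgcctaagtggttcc

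The NRF1 letters were found in 13 of the 65 members that had a promoter entry and reached 1 CPM (20%), in 10.4% of the promoters of 10858 tested genes and in 5.53% of all 27305 promoters. The GABP letters were found in 16 of the 65 (24.6%), in 15.9% of the tested genes and in 8.82% of all promoters. A match of letters is a description of the sequence and shows no binding.

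Library totals ran from 13867494 to 17500031 counts. With 1 library per group there is no replicate check, no test between conditions was possible and no p-value is given, so each statement compares libraries. Ratios are log2 ratios of CPM + 1, which understate the change of genes with low counts. For named genes, the fold is the plain CPM ratio, and the range in brackets is its exact 95% Clopper-Pearson interval, which covers counting error only. Below, higher and lower members are those with a log2 ratio of at least 0.32 in size. CPM are shares of a library, so a change in the mix of cells and a change of RNA within cells cannot be told apart. A higher share can also come from less RNA of other genes. All 8 epithelial markers were at 1 CPM or more in every library, and their summed level was 2878 CPM in siOCLN+LPS, 2893 CPM in the wtOCLN+LPS-labelled library, 1442 CPM in LPS and 1628 CPM in control. Of these, KRT5 was at 19.05 CPM in siOCLN+LPS and 22.4 CPM in LPS, and EPCAM at 1.26 CPM in siOCLN+LPS and 2.67 CPM in LPS, against the direction of the sum. The summed level of 4 immune markers was 4.98 CPM in siOCLN+LPS, 7.71 CPM in the wtOCLN+LPS-labelled library, 17.02 CPM in LPS and 16.99 CPM in control, nearly all of it from CD68, with CD3E at 0 in each. Over the 4 libraries, that of 3 endothelial markers was 0.189 to 1.44 CPM, that of 5 fibroblast markers was 56.1 to 63.0 CPM, that of 4 markers of ciliated cells was 441 to 654 CPM, nearly all of it from the tubulin gene TUBB4B, and FOXJ1, the master regulator of ciliated cells, was at 0 in every library. The part of these marker levels in the results was not tested.

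Of the 88 symbols, 79 reached 1 CPM in at least 1 library. The other 9 were near or at 0, and most of these are genes of other tissues or copies of expressed genes. COX4I2 (an isoform of subunit 4 known from lung and hypoxia), COX6A2 (the heart and muscle isoform of subunit 6a), COX7B2 and COX8C (testis isoforms) and the pseudogene ATP5EP2 had 0 counts in all 4 libraries, which allows for each up to 3 counts a library. COX7A1, the heart and muscle isoform of subunit 7a, had 4 counts in siOCLN+LPS, 4 in the wtOCLN+LPS-labelled library, 8 in LPS and 4 in control. ATP5L2, UQCRHL and UQCRBP1, copies of ATP5L, UQCRH and UQCRB, had 0 to 4 counts in any library. The partners of the tissue isoforms (COX4I1, COX6A1, COX7A2, COX7B and COX8A) were at 47.8 CPM or more in every library.

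After LPS for 2 h the subunits lay near their control level, inside the threshold with 1 exception at a low count. None of the 79 tested members was higher in LPS than in control, where 6.84% of 13551 tested genes were, and 1 was lower, where 13.2% were. That gene was COX6B2, the testis isoform of subunit 6b, with 10 counts in LPS and 19 counts in control, a ratio of 0.603 with an interval of 0.251 to 1.36 that includes 1. The members' median log2 ratio was -0.04, against -0.09 for all tested genes. Summed over the 88 symbols, the level was 6596 CPM in LPS (Poisson interval 6553 to 6639) and 6747 CPM in control (6706 to 6787). UQCR11, a small subunit of complex III, had the highest ratio at 0.30, with 39.9 CPM in LPS and 32.3 CPM in control; under TMM scaling it was 0.39, past the threshold. NDUFA8, an accessory subunit of complex I, had the lowest ratio among members at 5 CPM or more at -0.30, with 23.5 CPM in LPS and 29.3 CPM in control.

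In siOCLN+LPS against LPS, most subunits were higher, the small accessory ones by the most, while the large catalytic subunits stood close to their LPS level. Of 79 tested members, 45 were higher, where 18.3% of 13505 tested genes were, and 2 were lower, where 33.0% were. The members' median log2 ratio was 0.38, against -0.13 for all tested genes. Of the 79, 77 reached 1 CPM in both libraries, and the other 2 were COX6B2 and NDUFA4L2. The summed level was 8162 CPM in siOCLN+LPS (interval 8120 to 8205) and 6596 CPM in LPS (6553 to 6639), a ratio of 1.24 with an interval of 1.227 to 1.248. At 2-fold, 4 members were higher (NDUFB1, ATP5I, NDUFA3 and NDUFB2), where 3.32% of all tested genes were, and none was lower, where 3.92% were. Scaling by TMM, which sets the bulk of genes level between libraries, moved the median of all tested genes to 0.01 and that of the members to 0.52. Such scaling shifts all log2 ratios by nearly the same amount, so it cannot test the distance between these medians. Under TMM scaling 56 members were higher, where 25.8% of all tested genes were, and 1 was lower, where 23.1% were.

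**Figure D1:**
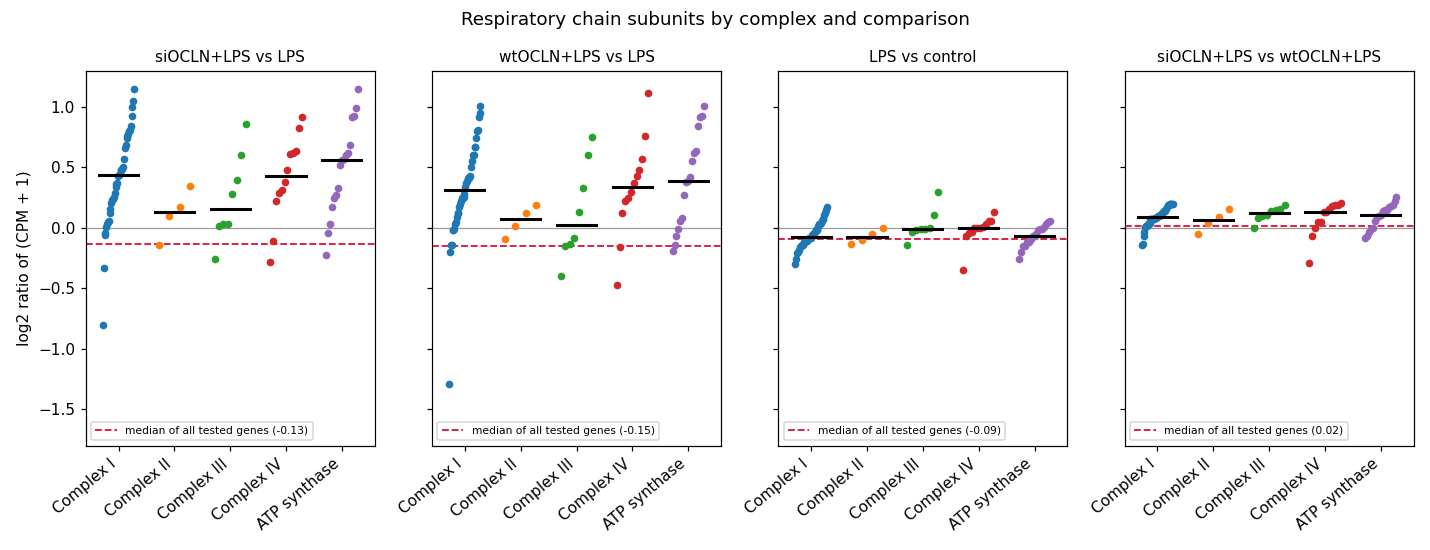
Log2 ratio of CPM + 1 for each tested member (points), by complex, in 4 comparisons; black bars are medians of the complex and the dashed line is the median of all tested genes. Complex I, complex IV and ATP synthase have medians of 0.43, 0.43 and 0.56 in siOCLN+LPS vs LPS, while in LPS vs control the medians of the 5 complexes lie between -0.07 and 0.00.

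The wtOCLN+LPS-labelled library shares its LPS reference with this comparison, and its values are set beside it. Of 79 tested members, 38 were higher than in LPS, where 16.9% of 13493 tested genes were, and 3 were lower (NDUFA4L2, UQCRC2 and COX7A2L), where 33.5% were. Of the 79, 77 reached 1 CPM in both libraries, and the other 2 were COX6B2 and NDUFA4L2. At 2-fold, 3 members were higher (NDUFA3, ATP5J2 and COX6B2), where 3.32% were, and 1 was lower (NDUFA4L2), where 3.69% were. COX6B2 and NDUFA4L2 were thus tested only through the library in which each was higher. The median log2 ratio was 0.28, against -0.15 for all tested genes. Under TMM scaling 50 were higher, where 25.1% were, and 1 was lower, where 21.6% were. The summed level was 7613 CPM in the wtOCLN+LPS-labelled library (7572 to 7654), which is 1.15-fold higher than in LPS with an interval of 1.14 to 1.16.

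Complex I, which oxidises NADH, has 7 core subunits among the members, and these lay nearest to the LPS level. In siOCLN+LPS the core had a median log2 ratio of 0.06, with 2 of 7 higher, and the 30 accessory subunits had a median of 0.49, with 21 higher and 1 lower. Over all tested genes, 18.3% were higher and 33.0% lower. NDUFV1, which binds NADH and FMN, was at 129 CPM in siOCLN+LPS, 121 CPM in the wtOCLN+LPS-labelled library, 132 CPM in LPS and 139.7 CPM in control. NDUFS1, the largest iron-sulfur subunit, was at 131 CPM in siOCLN+LPS, 125 CPM in the wtOCLN+LPS-labelled library, 126 CPM in LPS and 123 CPM in control. For both genes the 4 libraries lay within the threshold of each other. The core subunits that were higher were NDUFV2 and NDUFS8, which carry iron-sulfur clusters, at 1.40-fold (1.296 to 1.503) and 1.36-fold (1.247 to 1.487) of LPS in siOCLN+LPS.

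The accessory subunits of the B and C groups sit in the membrane arm, and 11 of 13 were higher in siOCLN+LPS, where 18.3% of all tested genes were. Their median log2 ratio was 0.49. NDUFB1 was at 31.9 CPM in siOCLN+LPS, 27.7 CPM in the wtOCLN+LPS-labelled library, 13.8 CPM in LPS and 15.5 CPM in control. NDUFB2 was at 33.2 CPM in siOCLN+LPS, 28.8 CPM in the wtOCLN+LPS-labelled library, 16.1 CPM in LPS and 19.5 CPM in control. Both transfected libraries were above both others for each of these genes. Against LPS, NDUFB1 was 2.30-fold higher in siOCLN+LPS (1.95 to 2.73) and 2.00-fold higher in the wtOCLN+LPS-labelled library (1.69 to 2.37), and NDUFB2 was 2.06-fold higher in siOCLN+LPS (1.76 to 2.42) and 1.79-fold higher in the wtOCLN+LPS-labelled library (1.53 to 2.11). NDUFB7, which faces the intermembrane space, was 1.93-fold above LPS in siOCLN+LPS (1.73 to 2.16). The smallest ratios of these groups were those of NDUFB5 and NDUFC1, at 0.23 and 0.21, under the threshold.

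Among the accessory subunits named A, S and V, 10 of 17 were higher than LPS in siOCLN+LPS, where 18.3% of all tested genes were. There 1 was lower, where 33.0% were. NDUFA3 was at 28.3 CPM in siOCLN+LPS, 27.4 CPM in the wtOCLN+LPS-labelled library, 13.1 CPM in LPS and 12.5 CPM in control, 2.16-fold above LPS in siOCLN+LPS (1.82 to 2.57) and 2.09-fold in the wtOCLN+LPS-labelled library (1.76 to 2.49). NDUFA13, also known as GRIM-19, was at 109 CPM in siOCLN+LPS, 98.9 CPM in the wtOCLN+LPS-labelled library, 61.9 CPM in LPS and 68.6 CPM in control. The transfected libraries were again the upper pair for both genes. NDUFV3, at the NADH-oxidising tip, lay the other way with 23.2 CPM in siOCLN+LPS, 25.4 CPM in the wtOCLN+LPS-labelled library, 29.4 CPM in LPS and 34.1 CPM in control, 1.27-fold below LPS in siOCLN+LPS (1.101 to 1.457); under TMM scaling its log2 ratio was -0.19, inside the threshold. Control was the highest of the 4 libraries for NDUFV3.

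NDUFA4 and its hypoxia-induced paralogue NDUFA4L2 stood apart from each other. NDUFA4 was at 125 CPM in siOCLN+LPS, 112 CPM in the wtOCLN+LPS-labelled library, 73.4 CPM in LPS and 69.7 CPM in control, 1.70-fold above LPS in siOCLN+LPS (1.58 to 1.83). NDUFA4L2 had 10 counts in siOCLN+LPS, 2 in the wtOCLN+LPS-labelled library, 24 in LPS and 31 in control. Its ratio to LPS was 0.331 in siOCLN+LPS (0.141 to 0.717) and 0.0660 in the wtOCLN+LPS-labelled library (0.00756 to 0.266). The paralogue was thus lower in both transfected libraries, on few counts.

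**Figure D2:**
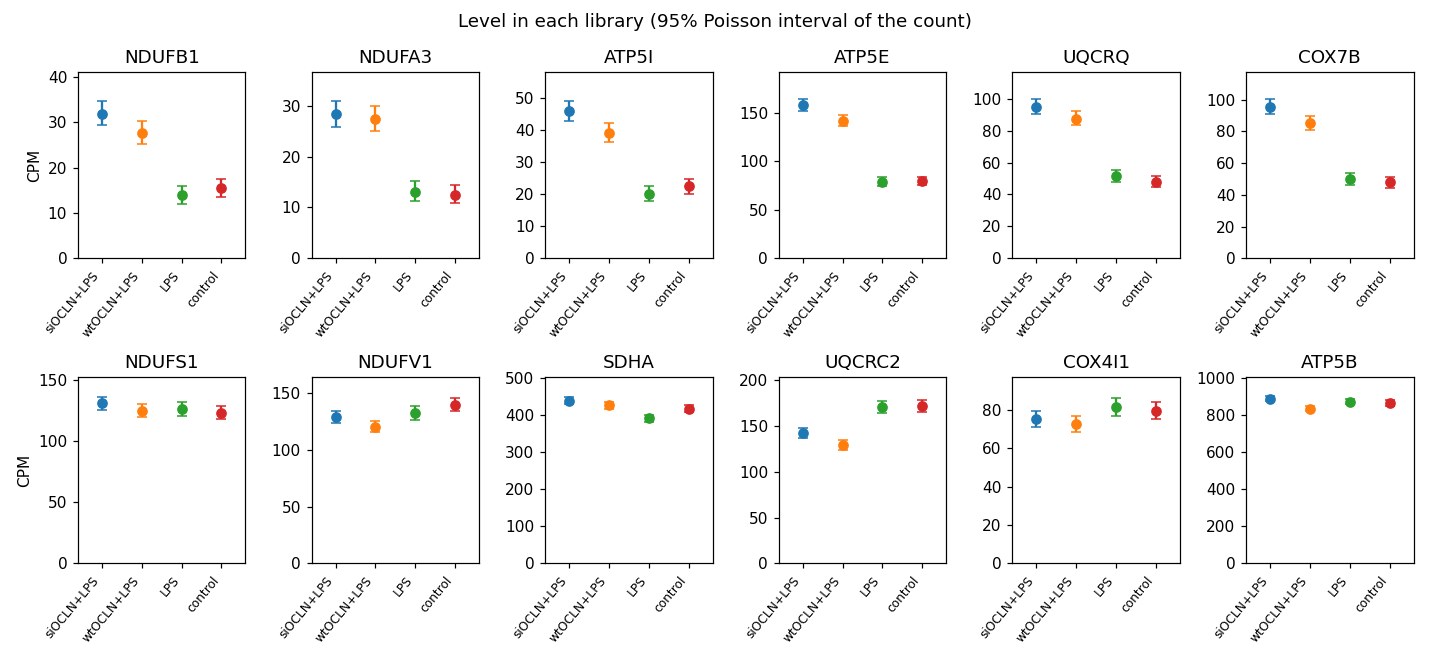
CPM of 12 members in the 4 libraries, with exact 95% Poisson intervals of the count, on axes from 0. In the upper row (small accessory or stalk subunits) siOCLN+LPS and wtOCLN+LPS lie above LPS and control. NDUFB1 is at 31.9 CPM in siOCLN+LPS and 27.7 CPM in wtOCLN+LPS, against 13.8 CPM in LPS and 15.5 CPM in control. In the lower row (large or central subunits, with the accessory COX4I1) the 4 libraries lie much closer. The core subunits NDUFV2 and NDUFS8, which were higher in siOCLN+LPS than in LPS, are not drawn.

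Complex II, succinate dehydrogenase, joins the citric acid cycle to the chain and has no small accessory subunits. Its median log2 ratio was 0.13 in siOCLN+LPS against LPS, and 1 of 4 members was higher, where 18.3% of all tested genes were. SDHA, the flavoprotein that oxidises succinate, was at 437 CPM in siOCLN+LPS, 425 CPM in the wtOCLN+LPS-labelled library, 389.9 CPM in LPS and 417 CPM in control. SDHB, the iron-sulfur subunit, was at 82.2 CPM in siOCLN+LPS, 77.3 CPM in the wtOCLN+LPS-labelled library, 76.4 CPM in LPS and 83.5 CPM in control. Neither passed the threshold in any comparison. The membrane anchors lay on either side of 1: SDHC was 1.28-fold above LPS in siOCLN+LPS (1.17 to 1.39), and SDHD had a ratio of 0.906 (0.838 to 0.979), which was level under TMM scaling with a log2 ratio of 0.00. In the wtOCLN+LPS-labelled library no SDH gene passed the threshold against LPS, and the median was 0.07.

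Complex III, which passes electrons from ubiquinol to cytochrome c, showed both kinds of subunit side by side. Its core proteins UQCRC1 and UQCRC2 and the Rieske iron-sulfur protein UQCRFS1 had log2 ratios of 0.02, -0.26 and 0.03 in siOCLN+LPS against LPS, and -0.08, -0.40 and -0.13 in the wtOCLN+LPS-labelled library. UQCRC2 was at 142 CPM in siOCLN+LPS, 129 CPM in the wtOCLN+LPS-labelled library, 170.3 CPM in LPS and 171 CPM in control, with a ratio to LPS of 0.755 in the wtOCLN+LPS-labelled library (0.712 to 0.800). Both transfected libraries were thus below LPS and control for UQCRC2, but its log2 ratio to LPS in the wtOCLN+LPS-labelled library was -0.24 under TMM scaling, inside the threshold. The 5 small subunits had a median of 0.40 in siOCLN+LPS, with 3 higher, where 18.3% of all tested genes were, and the lowest was at 0.03. In the wtOCLN+LPS-labelled library their median was 0.33, with 3 higher, where 16.9% were. UQCRB, 1 of the 5, was there below LPS at -0.15, inside the threshold. UQCRQ was at 94.99 CPM in siOCLN+LPS, 87.7 CPM in the wtOCLN+LPS-labelled library, 51.7 CPM in LPS and 47.8 CPM in control, 1.84-fold above LPS in siOCLN+LPS (1.68 to 2.01) and 1.70-fold in the wtOCLN+LPS-labelled library (1.55 to 1.86). UQCR11, whose promoter is shown above with 2 matches to each motif, was at 60.9 CPM in both transfected libraries, 1.53-fold above LPS in each (1.38 to 1.70). The summed level of complex III was 984 CPM in siOCLN+LPS, 900 CPM in the wtOCLN+LPS-labelled library and 901 CPM in LPS. Its ratio to LPS was 1.09 in siOCLN+LPS (1.07 to 1.12) and 0.999 in the wtOCLN+LPS-labelled library (0.976 to 1.02).

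Complex IV, cytochrome c oxidase, reduces oxygen. All of its catalytic subunits are encoded in mitochondrial DNA, so its nuclear members are accessory. In siOCLN+LPS against LPS, 7 of 12 tested members were higher, where 18.3% of all tested genes were, and the median log2 ratio was 0.43. In the wtOCLN+LPS-labelled library 6 were higher, where 16.9% were, 1 was lower, where 33.5% were, and the median was 0.33. COX6B2 was among the higher members in both, and it reached 1 CPM only in the transfected library of each. Of the 10 broadly expressed subunits, 6 were higher in siOCLN+LPS and 5 in the wtOCLN+LPS-labelled library. COX7B was at 95.4 CPM in siOCLN+LPS, 85.1 CPM in the wtOCLN+LPS-labelled library, 49.9 CPM in LPS and 47.8 CPM in control, 1.91-fold above LPS in siOCLN+LPS (1.75 to 2.09). In siOCLN+LPS, COX6B1, at the dimer interface, was 1.56-fold (1.45 to 1.68) and COX5B, which binds zinc, 1.54-fold (1.43 to 1.66) above LPS. COX4I1, an early partner in assembly of the complex, was at 75.2 CPM in siOCLN+LPS, 72.7 CPM in the wtOCLN+LPS-labelled library, 81.3 CPM in LPS and 79.6 CPM in control. Its 4 libraries lay within the threshold, with a log2 ratio of -0.11 in siOCLN+LPS against LPS that was 0.03 under TMM scaling. COX5A, with which COX4I1 assembles, was 1.24-fold above LPS in siOCLN+LPS (1.142 to 1.347), just under the threshold.

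COX7A2L, a paralogue of subunit 7a that links complexes III and IV in supercomplexes, lay apart from its family. It was at 53.6 CPM in siOCLN+LPS, 46.9 CPM in the wtOCLN+LPS-labelled library, 65.1 CPM in LPS and 68.4 CPM in control, while COX7A2, the subunit itself, was at 99.8 CPM in siOCLN+LPS, 91.0 CPM in the wtOCLN+LPS-labelled library, 64.9 CPM in LPS and 64.8 CPM in control. COX7A2L was 1.39-fold lower in the wtOCLN+LPS-labelled library than in LPS (1.26 to 1.53), and COX7A2 was 1.40-fold higher (1.29 to 1.52). Under TMM scaling the log2 ratio of COX7A2L there was -0.30, inside the threshold. COX7A2L was thus the lower and COX7A2 the higher in the transfected pair. COX6B2 had 36 counts in siOCLN+LPS, 48 in the wtOCLN+LPS-labelled library, 10 in LPS and 19 in control, so its ratios to LPS of 2.86 in siOCLN+LPS (1.39 to 6.45) and 3.80 in the wtOCLN+LPS-labelled library (1.90 to 8.43) rest on few counts.

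ATP synthase had the highest median of the 5 complexes in siOCLN+LPS against LPS, 0.56 with 11 of 17 members higher, where 18.3% of all tested genes were. Its median in the wtOCLN+LPS-labelled library was 0.39 with 10 higher, where 16.9% were. Its F1 head makes ATP, and there the subunits diverged. The catalytic beta subunit, ATP5B, was at 891 CPM in siOCLN+LPS, 836 CPM in the wtOCLN+LPS-labelled library, 875 CPM in LPS and 867 CPM in control, and the alpha subunit, ATP5A1, was at 517 CPM in siOCLN+LPS, 479 CPM in the wtOCLN+LPS-labelled library, 459.8 CPM in LPS and 467 CPM in control. Neither passed the threshold. The 3 subunits of the central stalk were all higher: ATP5C1 (gamma) 1.44-fold (1.34 to 1.54), ATP5D (delta) 1.91-fold (1.75 to 2.09) and ATP5E (epsilon) 2.00-fold (1.87 to 2.15) in siOCLN+LPS. ATP5E was at 158 CPM in siOCLN+LPS, 142 CPM in the wtOCLN+LPS-labelled library, 79.0 CPM in LPS and 79.7 CPM in control, so that LPS and control were nearly equal.

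The membrane subunits e, f and g, which lie where 2 ATP synthases meet as a dimer, had a median log2 ratio of 0.93 in siOCLN+LPS. Subunit e, ATP5I (now ATP5ME), was at 46.0 CPM in siOCLN+LPS, 39.2 CPM in the wtOCLN+LPS-labelled library, 20.2 CPM in LPS and 22.5 CPM in control, 2.28-fold above LPS in siOCLN+LPS (1.98 to 2.62) and 1.94-fold in the wtOCLN+LPS-labelled library (1.69 to 2.24). Subunit f, ATP5J2, was 1.92-fold above LPS in siOCLN+LPS (1.75 to 2.12) and 2.03-fold in the wtOCLN+LPS-labelled library (1.85 to 2.24). Subunit g, ATP5L, was 1.48-fold above LPS in siOCLN+LPS (1.38 to 1.59) and 1.32-fold in the wtOCLN+LPS-labelled library (1.22 to 1.42). All 3 were higher in both transfected libraries. Of the peripheral stalk, ATP5H, ATP5O and ATP5J were higher and ATP5F1 was at a log2 ratio of 0.27 in siOCLN+LPS. Subunit c, the ring that turns with the protons, is encoded by 3 genes that give the same mature protein. ATP5G1 was 1.63-fold higher (1.46 to 1.82), ATP5G3 1.26-fold higher (1.19 to 1.33) and ATP5G2 1.19-fold higher (1.12 to 1.26, under the threshold) in siOCLN+LPS than in LPS. ATP5S and ATP5SL, which are not subunits, had log2 ratios of -0.22 and -0.04.

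**Figure D3:**
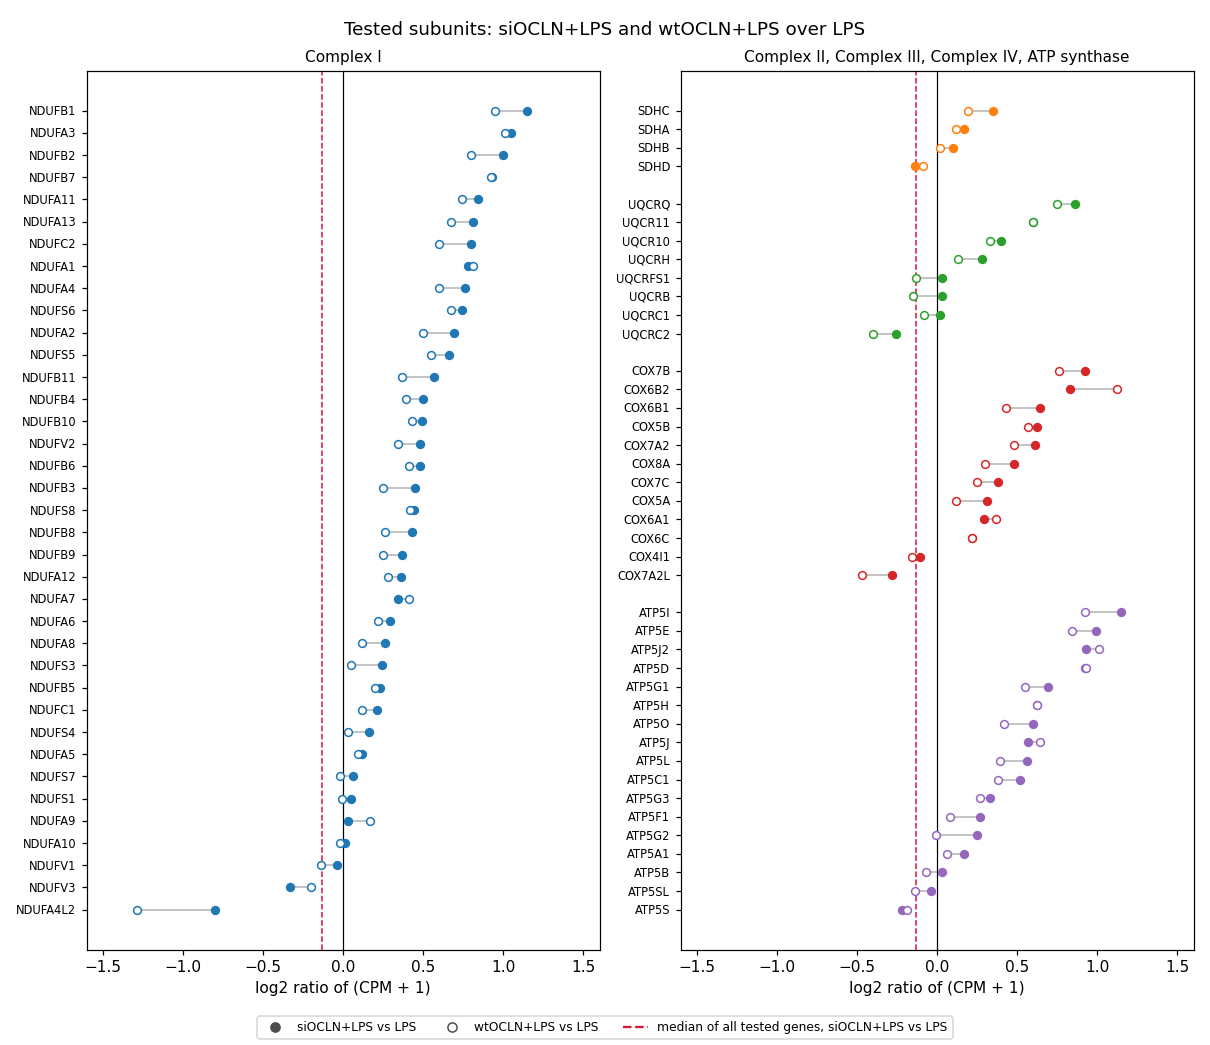
Log2 ratio of CPM + 1 to LPS for the tested members, with 1 left out, in siOCLN+LPS (filled) and in wtOCLN+LPS (open), ordered within each complex by siOCLN+LPS, with the median of all tested genes in siOCLN+LPS vs LPS as a dashed line. Some core subunits, such as NDUFV1 at -0.04 and UQCRC2 at -0.26, lie at the lower end of their complexes. Some small subunits, such as NDUFB1 at 1.15 and UQCRQ at 0.86, lie at the upper end. In complex I the highest core subunit is at 0.48 and the lowest accessory subunit at -0.33 in siOCLN+LPS.

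The transfected libraries stood close to each other in these genes. In siOCLN+LPS against the wtOCLN+LPS-labelled library none of 78 tested members was higher, where 4.81% of 13109 tested genes were, and none was lower, where 4.84% were. The median log2 ratio was 0.10, against 0.02 for all tested genes, and 66 of the 78 lay above 0, where 54.5% of all tested genes did. Some other lists leaned the same way. Above 0 lay 74 of 78 cytosolic ribosomal proteins (median 0.12), 55 of 77 mitochondrial ribosomal proteins (0.07) and 14 of 18 citric acid cycle and pyruvate dehydrogenase genes (0.08). Of 37 proteasome subunits, 21 did (0.04). Summed over all members, the level was 1.07-fold higher in siOCLN+LPS (1.064 to 1.08), and the complexes lay between 1.035-fold for complex II and 1.09-fold for complex III. The highest ratio among members at 5 CPM or more was that of ATP5G2, at 0.26, and the lowest was that of NDUFA9, an accessory subunit of complex I, at -0.14. ATP5G2 was at 157 CPM in siOCLN+LPS, 131 CPM in the wtOCLN+LPS-labelled library, 132 CPM in LPS and 147 CPM in control.

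The transfected libraries were also set against control. In siOCLN+LPS 44 members were higher than in control, where 16.2% of all tested genes were, and 4 were lower, where 41.1% were, with a median log2 ratio of 0.38 against -0.22 for all tested genes. In the wtOCLN+LPS-labelled library 37 were higher, where 14.9% were, and 5 were lower, where 42.2% were, with a median of 0.31 against -0.24.

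The difference between small and large subunits was plain when members were set against the length of their coding sequence. Between siOCLN+LPS and LPS, 36 of 49 tested members with a coding length of 500 nt or less were higher, with a median log2 ratio of 0.57, against 32.9% of 1029 other genes of that length, with a median of 0.11. Above 500 and up to 1000 nt, 9 of 20 members were higher, with a median of 0.26, against 20.4% of 2786 other genes, with a median of -0.04. Above 1000 nt, none of 10 members was higher, with a median of 0.02, against 16.3% of 8637 other genes, with a median of -0.17. In each class of length the members' median was above that of other genes, and it was lower in longer classes for both. In the wtOCLN+LPS-labelled library the members' medians were 0.43, 0.15 and -0.04 from short to long, against 0.05, -0.07 and -0.18 for other genes.

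As a description across members that share 2 libraries, Spearman's rho between log2 ratio and coding length was -0.53 over 79 members in siOCLN+LPS against LPS and -0.53 in the wtOCLN+LPS-labelled library against LPS, while over all genes with a coding length it was -0.15 and -0.13. It was -0.22 over the members in LPS against control. Removing the trend of the ratio with coding length and GC content over all genes left the members' median at 0.23 in siOCLN+LPS against LPS, with 30 higher and 3 lower, where 17.1% of 12531 genes with a coding length were higher, 31.1% lower and the median was -0.11. It left the median at 0.13 in the wtOCLN+LPS-labelled library, with 26 higher and 5 lower, where 15.8% of 12509 genes were higher, 31.4% lower and the median was -0.14. The part of length in the result was not otherwise tested. Named pseudogene copies, with which a short gene can share reads, exist for 44 members, of which 26 were higher in siOCLN+LPS against LPS with a median of 0.40; of 35 tested members without such copies, 19 were higher with a median of 0.34.

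**Figure D4:**
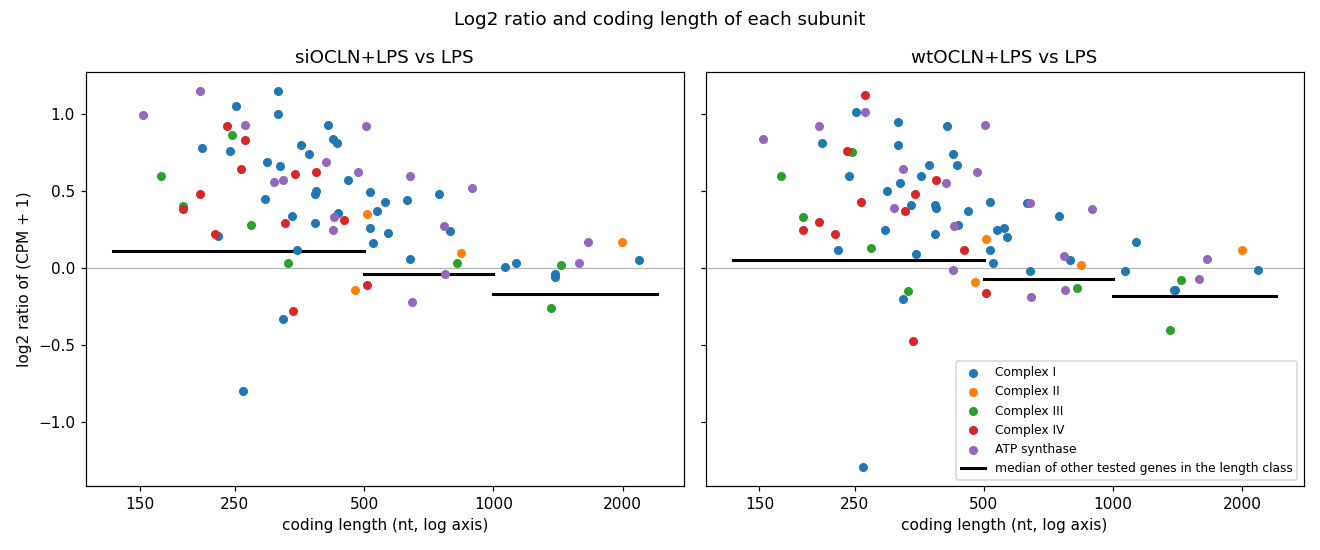
Log2 ratio of CPM + 1 to LPS of each tested member (points, coloured by complex) against its coding length in nt on a log axis; black lines are the medians of other tested genes in 3 classes of length. Members of 500 nt or less have a median of 0.57 in siOCLN+LPS vs LPS and those over 1000 nt one of 0.02, against 0.11 and -0.17 for other genes.

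Some genes outside the naming rule were looked up, for subunits of ATP synthase and complex III and for the inhibitor of ATP synthase. Of these 4 genes, 3 were above LPS past the threshold in siOCLN+LPS, where 18.3% of all tested genes were. C14orf2 and USMG5, small membrane subunits of ATP synthase, were 1.89-fold (1.67 to 2.15) and 1.77-fold (1.61 to 1.95) higher in siOCLN+LPS than in LPS. ATPIF1, the inhibitor that stops ATP synthase from running backwards, was at 67.4 CPM in siOCLN+LPS, 58.0 CPM in the wtOCLN+LPS-labelled library, 44.2 CPM in LPS and 52.2 CPM in control, 1.52-fold above LPS in siOCLN+LPS (1.38 to 1.68). CYC1, the cytochrome c1 of the complex III core, was at 162 CPM in siOCLN+LPS, 150.2 CPM in the wtOCLN+LPS-labelled library, 157 CPM in LPS and 145 CPM in control and inside the threshold throughout. ETFB, which feeds electrons from fatty acid oxidation towards ubiquinone, was at 81.5 CPM in siOCLN+LPS, 64.4 CPM in the wtOCLN+LPS-labelled library, 42.6 CPM in LPS and 38.9 CPM in control, 1.92-fold above LPS in siOCLN+LPS (1.74 to 2.11). It and SQRDL, the sulfide oxidase, were the 2 of 7 tested genes for cytochrome c and electron entry that were higher in siOCLN+LPS, against 18.3% of all tested genes. SQRDL was at 62.4 CPM in siOCLN+LPS, 64.9 CPM in the wtOCLN+LPS-labelled library, 46.7 CPM in LPS and 38.9 CPM in control. CYCS, cytochrome c itself, was at 279.9 CPM in siOCLN+LPS, 290.5 CPM in the wtOCLN+LPS-labelled library, 269.6 CPM in LPS and 245 CPM in control, inside the threshold.

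The medians of the assembly factors lay nearer to the median of all genes than those of the subunits did. Their counts stand against 18.3% of all tested genes higher and 33.0% lower. Against LPS, in siOCLN+LPS, 5 of 15 complex I factors were higher and 2 lower (median -0.10), 1 of 6 complex III factors was higher (median -0.01), 7 of 23 complex IV factors were higher and 5 lower (median -0.07), 1 of 4 complex II factors was lower (median -0.17) and 1 of 4 ATP synthase factors was lower (median 0.03). The medians of the complex I, III and IV factors were 0.02, 0.14 and 0.06 under TMM scaling, where the members' median was 0.52. PET100, a small complex IV factor, was at 23.0 CPM in siOCLN+LPS, 19.2 CPM in the wtOCLN+LPS-labelled library, 9.74 CPM in LPS and 10.4 CPM in control, 2.36-fold above LPS in siOCLN+LPS (1.94 to 2.89). COA7, another complex IV factor, was at 29.1 CPM in siOCLN+LPS, 28.1 CPM in the wtOCLN+LPS-labelled library, 49.5 CPM in LPS and 52.4 CPM in control, 1.70-fold lower in siOCLN+LPS (1.52 to 1.92). Factors of the same complex therefore lay on opposite sides of LPS. UQCC2, of complex III, was 1.63-fold above LPS in siOCLN+LPS (1.43 to 1.86), and ECSIT, of complex I, had a ratio of 0.667 (0.589 to 0.756) in siOCLN+LPS.

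Regulators of mitochondrial biogenesis had a median below that of all genes. Of 14 regulators, 8 were lower in siOCLN+LPS than in LPS, where 33.0% of all tested genes were, and 1 was higher, with a median log2 ratio of -0.40 against -0.13. Of the same 14, 9 were lower in the wtOCLN+LPS-labelled library, where 33.5% were, and 1 was higher, with a median of -0.36 against -0.15. Under TMM scaling 4 were lower in each, where 23.1% of all tested genes were in siOCLN+LPS and 21.6% in the wtOCLN+LPS-labelled library, with medians of -0.25 in siOCLN+LPS and -0.19 in the wtOCLN+LPS-labelled library against 0.01 for all genes in both. The gene that was higher in both was PPARGC1A, which encodes PGC-1alpha, the coactivator best known for driving respiratory genes. It was at 132 CPM in siOCLN+LPS, 131 CPM in the wtOCLN+LPS-labelled library, 67.9 CPM in LPS and 76.8 CPM in control, 1.95-fold above LPS in siOCLN+LPS (1.80 to 2.10). Its relative PPARGC1B was at 15.8 CPM in siOCLN+LPS, 14 CPM in the wtOCLN+LPS-labelled library, 32.6 CPM in LPS and 31.7 CPM in control, 2.06-fold below LPS in siOCLN+LPS (1.77 to 2.41). The transfected libraries were the upper pair for PPARGC1A and the lower pair for PPARGC1B.

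Some factors of mitochondrial DNA and of the promoters shown above were among the lower genes, and others lay inside the threshold. GABPB1, the beta chain of GABP, was at 30.1 CPM in siOCLN+LPS, 32.6 CPM in the wtOCLN+LPS-labelled library, 48.0 CPM in LPS and 39.1 CPM in control, and C10orf2, the mitochondrial DNA helicase, was at 55.3 CPM in siOCLN+LPS, 55.5 CPM in the wtOCLN+LPS-labelled library, 79.5 CPM in LPS and 77.8 CPM in control. TFB2M, a mitochondrial transcription factor, was at 19.5 CPM in siOCLN+LPS, 15.03 CPM in the wtOCLN+LPS-labelled library, 27.8 CPM in LPS and 28.4 CPM in control. Of genes looked up after these values were seen, TFAM, which packs mitochondrial DNA, had a log2 ratio of -0.46 and GABPA one of -0.37 in siOCLN+LPS against LPS, but these were -0.31 and -0.23 under TMM scaling, inside the threshold. NRF1 at -0.27, the mitochondrial RNA polymerase POLRMT at -0.30 and the DNA polymerase POLG at -0.26 were inside it without that scaling, as was TFB1M at 0.20, which was 0.33 and past it under TMM scaling. NRF1 was at 19.9 CPM in siOCLN+LPS, 21.5 CPM in the wtOCLN+LPS-labelled library, 24.2 CPM in LPS and 34.2 CPM in control. Of the 14 regulators, 1 (NRF1) was lower in LPS than in control, where 13.2% of all tested genes were, with a ratio of 0.706 (0.614 to 0.810). Members whose promoter held the GABP letters had a median log2 ratio of 0.59 in siOCLN+LPS against LPS (16 members), against 0.38 without them (49 members), and for the NRF1 letters the medians were 0.50 (13 members) and 0.41 (52 members).

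Other mitochondrial and housekeeping machines had medians between those of the subunits and of all genes, while their shares of higher genes lay on both sides of the 18.3% over all tested genes. For siOCLN+LPS against LPS, where 33.0% of all tested genes were lower, 1 of 18 genes of the citric acid cycle and pyruvate dehydrogenase was higher with a list median of 0.02, 15 of 77 mitochondrial ribosomal proteins were higher and 5 lower with a median of 0.11, 12 of 78 cytosolic ribosomal proteins were higher and 4 lower with a median of 0.10, and 9 of 37 proteasome subunits were higher and 2 lower with a median of 0.20. The proteasome list also holds subunits of the immunoproteasome. Its largest ratios were those of 2 of these, PSMB10 at 2.28-fold (1.95 to 2.67) and PSMB9 at 1.615-fold (1.472 to 1.775) of LPS. Of 12 genes of ubiquinone synthesis, 2 were higher and 2 lower, with a median of 0.06. In the wtOCLN+LPS-labelled library against LPS the median was -0.07 for the citric acid cycle and pyruvate dehydrogenase, 0.03 for mitochondrial ribosomal proteins, 0.00 for cytosolic ribosomal proteins, 0.14 for proteasome subunits and -0.03 for ubiquinone synthesis.

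**Figure D5:**
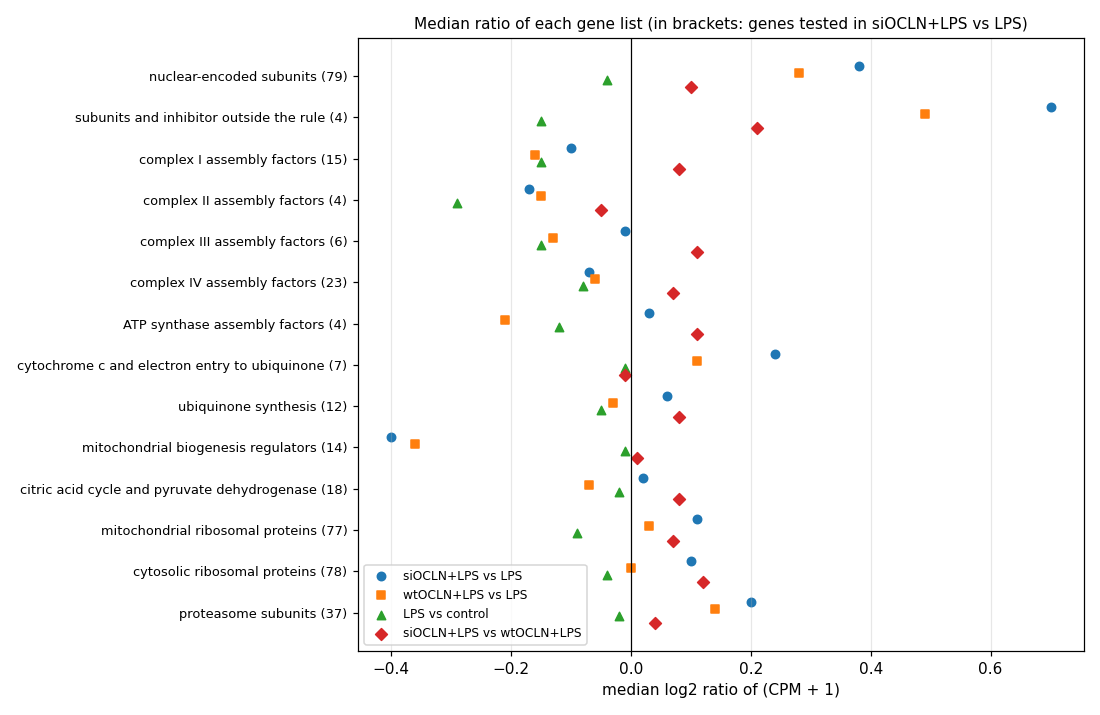
Median log2 ratio of CPM + 1 of each gene list in 4 comparisons (symbols), with the number of genes tested in brackets. The nuclear-encoded subunits lie at 0.38 and 0.28 in siOCLN+LPS and wtOCLN+LPS vs LPS, and the regulators of mitochondrial biogenesis at -0.40 and -0.36.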

How the data were processed

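The deposited values are whole-number counts of reads per gene symbol, 1 table per library, as the authors deposited them. Per the submitters' processing notes, TopHat, Cufflinks and hg19 were used, with no roles stated. Not given in the sources used here are the counting tool, its strand setting and the annotation, so genes that share reads with copies or overlapping genes are uncertain. Input was 1.3 µg of total RNA and the kit was NEBNext Ultra II Directional, per the labels' protocols.

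CPM were computed from library totals. A comparison covered genes that reached 1 CPM in 1 or both of its libraries, as log2 ratios with a pseudocount of 1. With 1 library per group no model was fitted. Coding and transcript lengths came from GENCODE 29, promoters from RefSeq. Members, lists and the threshold were chosen with earlier results of these data known. A rule picked in each complex the 2 highest and 2 lowest members at 5 CPM, central subunits, isoform pairs and up to 4 genes per list. Not all of these genes are described in the text, and others named were chosen after their values were seen. Steps were tested on simulated counts with counting error only and with folds beyond the threshold, so calls close to the threshold were not tested. Python 3.11.15, SciPy 1.17.1, pandas 2.3.3, and R 4.3.3 with edgeR 4.0.16 (scaling factors only) were used. Values of 1 complex I member are not reported here; it stays in all counts, sums and medians.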

Additional observations from a re-analysis of the deposited data

How the results depend on the processing

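No paired analysis was possible because each group has 1 library and the labels give no replicate numbers, and no library could be left out for the same reason. Besides the settings below, the alternatives were no filter, a mean in place of the median, and leaving out pseudogenes and non-subunits; removal of the trend with coding length and GC was added after seeing the data. In siOCLN+LPS against LPS, 45 members were higher, 26 at 1.5-fold and 4 at 2-fold. Its 2 lower members became 0 with a pseudocount of 5 and at 2-fold, 1 with a filter at CPM 5, with TMM, median ratio or upper quartile scaling and at 1.5-fold, and 4 with control as reference. Its median of 0.38 was 0.52 with median ratio and TMM scaling, 0.25 with the transcript length and GC trend removed and 0.23 with the coding length and GC trend removed. In the wtOCLN+LPS-labelled library against LPS, 38 were higher, 20 at 1.5-fold and 3 at 2-fold. Its 3 lower members became 1 with median ratio and TMM scaling and at 1.5-fold and 2-fold, and 5 with the coding trend removed and with control as reference. Its median of 0.28 was 0.44 with median ratio and TMM scaling and 0.13 with the coding trend removed. In LPS against control, the count of higher members was 1 without a filter and with the 3 scalings, and that of lower members was 0 with a pseudocount of 5, a filter at CPM 5, the 3 scalings, 1.5-fold and 2-fold, and 2 with either trend removed. In siOCLN+LPS against the wtOCLN+LPS-labelled library, 1 member was higher without a filter, and 1 was lower with a pseudocount of 0.1 and with the coding trend removed. The other values, of complexes and single members, were held to 1 tolerance per comparison, the median half-width of the tested members' counting intervals. They moved beyond this tolerance in 293 cases and stayed within it in 719, and no called value changed sign. The higher thresholds count fewer genes by construction, and for the other settings the cause was not tested. Members with few counts (COX6B2 and NDUFA4L2 among those tested) are limited by depth, and the spread between cultures is unknown for every value.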
